A study of Mus musculus with 16 samples.

Results

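The comparison set the striatum of GS mice against that of wild-type (WT) mice in the later, reactive course of a chemical brain injury, 3 d and 15 d after it was made. It used 8 of the 16 libraries of the series, chosen by their labels alone: GS at 3 d, WT at 3 d, GS at 15 d and WT at 15 d, with 2 libraries in each group. GS was read as a carrier of the G2019S change in LRRK2, which the series title names, and the columns headed NT were taken as WT because the labels name no other genotype. All 8 libraries came from injured brains, so both genotypes carried the injury: under tribromoethanol anaesthesia the striatum of one side was injected with ATP, which leaks from dying cells, at 500 mM and in a volume of 0.8 µl. The other 8 libraries, GS and WT striatum that was intact or taken 6 h after ATP, served as the early stages. For age, sex, strain background and the way the LRRK2 change is carried, nothing is stated by the labels. The labels call the 2 libraries of a group biological replicates and do not say whether each holds 1 animal, so the p-values measure the spread between these libraries.

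LRRK2 is a large kinase that phosphorylates Rab GTPases, the switches of vesicle traffic, and G2019S lies in its kinase domain, raises its activity and is a common inherited cause of Parkinson disease. LRRK2 is made in striatal projection neurons and in microglia and other myeloid cells, where it has been tied to lysosomes and to the inflammatory response. In the days after an injury, microglia and incoming monocytes clear the debris, astrocytes become reactive around the damaged area, and fibroblast-like cells lay down collagen.

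Total counts in the 8 libraries ran from 49220578 to 63948110, and mitochondrial genes took 10.3 to 12.9% of them. Levels are given as CPM, read counts scaled to library size, after TMM scaling over all 16 libraries. Replicates of a group differed well beyond counting noise, with a chi-square per degree of freedom of 15.1 to 33.7. All 20 projection neuron genes measured were present, with Drd1 at 185 to 297 CPM. The cortical gene Slc17a7 was uneven, at 4.47 to 12.5 CPM in GS libraries and 5.42 to 35.0 CPM in WT libraries, and its part in the results was not tested beyond a fit with the cortical marker level as a covariate. In these whole-tissue libraries, fewer cells of a type and less RNA per cell cannot be told apart.

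Psme4 was the one gene of 18646 tested that passed an adjusted p under 0.05 in GS against WT with stage as a covariate (0.00536% of genes, by edgeR's quasi-likelihood test with Benjamini-Hochberg adjustment). It encodes PA200, a nuclear activator that caps the proteasome and favours the breakdown of acetylated histones. Psme4 stood at 32.1 and 35.5 CPM in GS striatum at 3 d, against 65.7 and 65.2 CPM in WT striatum at 3 d. At 15 d it stood at 31.1 and 30.7 CPM in GS striatum, against 58.4 and 58.9 CPM in WT striatum. The GS and WT libraries lay far apart at both stages, and the replicates of each group lay close together. Psme4 fell in GS striatum by 0.94 on the log2 scale (SE 0.052, adjusted p = 3.98e-05), which is 0.520 of the WT level (95% interval 0.480 to 0.564).

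The difference in Psme4 was of like size at each stage on its own, at -0.96 ± 0.08 log2 units (SE) at 3 d and -0.93 ± 0.08 at 15 d, and the change of the difference between them was 0.03 ± 0.11 (adjusted p = 1 by edgeR). The early libraries, which the comparison did not use, showed the same gap. Intact GS striatum held 25.0 and 27.1 CPM, against 56.2 and 50.9 CPM in intact WT striatum. At 6 h GS striatum held 33.2 and 33.1 CPM, against 58.5 and 58.8 CPM in WT striatum. Psme4 was also the one gene of 18626 to pass there (0.00537% of genes, -0.93 ± 0.06, adjusted p = 9.36e-05 by edgeR), so the gap was present without injury. DESeq2 called more genes in the early libraries, as counted at the end. By edgeR 10.4% of genes there were under an unadjusted p of 0.05, against 6.52% at the reactive stages. The reactive difference less the early one was -0.01 ± 0.07 log2 units for Psme4.

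**Figure D1:**
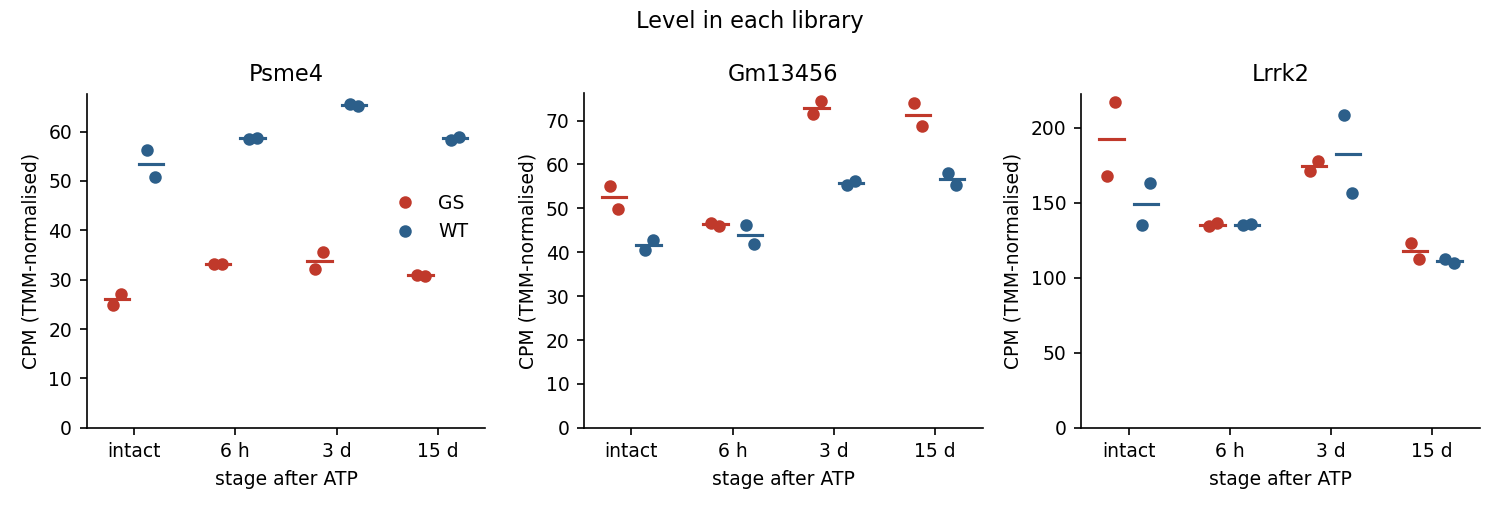
Level of Psme4, Gm13456 and Lrrk2 in CPM (y axis, from 0) in each of the 16 libraries by stage (x axis), with GS in red left of WT in blue; points are libraries and short lines are means of 2. Psme4 in GS lies between 25.0 and 35.5 CPM and in WT between 50.9 and 65.7 CPM at all 4 stages, while Lrrk2 overlaps at 6 h and 3 d.

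Psme4 (NCBI Gene 103554) lies on chromosome 11 of GRCm38.p6 (mm10) from 30771775 to 30881150, on the plus strand. The stretch of 250 bases before its annotated start is printed here because it is the promoter side of the gene that the comparison turns on. It runs over chr11:30771525-30771774 on the plus strand in the RefSeq annotation, and capitals mark each CG.
Psme4 promoter: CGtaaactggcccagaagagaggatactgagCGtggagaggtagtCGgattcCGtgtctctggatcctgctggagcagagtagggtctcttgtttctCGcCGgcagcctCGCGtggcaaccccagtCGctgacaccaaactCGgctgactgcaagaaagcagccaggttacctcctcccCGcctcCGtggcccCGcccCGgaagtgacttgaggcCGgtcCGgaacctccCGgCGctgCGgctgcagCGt
The window holds 20 CG and is 63.6% G and C, and 17.9% of 32851 promoter windows of the same length hold at least as many CG, against a median of 6. These letters are the reference genome's, and the counts say nothing of the sequence in either mouse line.

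Of the genes around Psme4 none passed with it. Of 14 tested genes with a start or end within 1 Mb, 0 passed by edgeR, 1 had an unadjusted p under 0.05 (Stc2, a secreted glycoprotein) and the log2 fold changes ran from -0.26 to 0.60. Erlec1, a lectin of the endoplasmic reticulum whose gene overlaps the end of Psme4, had 48.3 and 55.4 CPM in GS and 51.6 and 49.9 CPM in WT at 3 d, and 52.1 and 50.6 CPM in GS and 55.7 and 49.1 CPM in WT at 15 d. The groups overlapped at both stages, and its log2 fold change was -0.0017 ± 0.061 (adjusted p = 0.998 by edgeR). Gpr75, a receptor gene just beyond the end of Psme4, had a log2 fold change of 0.01 ± 0.09. Because strand use is not given, reads in the part shared by Psme4 and Erlec1 cannot be assigned to one of them from the table.

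The median of the proteasome genes lay near 0. The proteasome breaks down proteins in a barrel of core subunits that is opened by regulatory caps, among them PA28, made of Psme1, Psme2 or Psme3. Of 18 proteasome genes tested, Psme4 alone passed, 6 lay above 0 and the median was -0.03 log2 units, against -0.0049 for all genes tested. The values ran from -0.94, that of Psme4, to 0.24, and Psme4 alone was under an unadjusted p of 0.05 by edgeR. Psme3, the nuclear PA28 subunit, had 89.1 and 90.1 CPM in GS and 92.3 and 88.6 CPM in WT at 3 d, and 76.0 and 77.4 CPM in GS and 77.1 and 81.8 CPM in WT at 15 d. Its groups overlapped at both stages, with a log2 fold change of -0.03 ± 0.05. Psme1 had 0.06 ± 0.11 and Psme2 0.01 ± 0.08, and the interval of neither reached the size seen for Psme4.

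Lrrk2 itself, the altered gene, did not pass. Lrrk2 (Gene 66725, chromosome 15, 91672791 to 91816124) had 171 and 178 CPM in GS and 208 and 157 CPM in WT at 3 d, and 123 and 113 CPM in GS and 112 and 110 CPM in WT at 15 d. The 3 d groups overlapped and at 15 d the GS libraries stood just above the WT libraries, with a log2 fold change of 0.01 ± 0.08 (95% interval -0.17 to 0.19, adjusted p = 0.99 by edgeR). A count per gene does not show the coded change, so the level of Lrrk2 does not check the labels. Within 20 Mb of Lrrk2, 0 of 499 tested genes passed by edgeR and 37 had an unadjusted p under 0.05, or 7.41%, against 6.52% of all genes tested.

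The kinase family and its Rab substrates were near the level of all genes. Of 20 genes tested 0 passed by edgeR, 12 lay above 0 and the median was 0.01 log2 units; 3 were higher and 1 lower at an unadjusted p under 0.05, against 4.29% higher and 2.23% lower over all genes. The 4 were chosen here for their values. Lrrk1, the sister kinase, had 7.13 and 8.85 CPM in GS and 5.12 and 8.42 CPM in WT at 3 d, and 8.89 and 12.8 CPM in GS and 5.98 and 8.28 CPM in WT at 15 d, so the groups overlapped at 3 d and not at 15 d. Its log2 fold change was 0.42 ± 0.19 (adjusted p = 0.764 by edgeR). Ppm1h, the phosphatase that removes the LRRK2 mark from Rab proteins, had 0.16 ± 0.05. The vesicle Rab gene Rab8b had 0.21 ± 0.09 and the synaptic vesicle Rab gene Rab3a -0.16 ± 0.06. Each was without overlap at either stage and none was past the threshold. Rab8b and Rab3a were apart by little at 3 d. The nearest GS and WT libraries held 45.69 and 45.27 CPM of Rab8b, and 245.9 and 246.2 CPM of Rab3a. Over all genes, 3.58% lay apart at both stages with GS higher and 3.29% with GS lower. Without 1 library the number under an unadjusted p of 0.05 ran from 1, without GS 3 d replicate 2 or WT 3 d replicate 1, to 5, and it was 2 without GS 15 d replicate 2 or WT 15 d replicate 1.

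Genes of inherited Parkinson disease were as flat, with 0 of 16 past the threshold by edgeR, 7 above 0 and a median of -0.03. Chchd2, a mitochondrial protein, had a log2 fold change of -0.18 ± 0.06 (unadjusted p = 0.0130, adjusted p = 0.747 by edgeR) and was named for its p.

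The genes next in order of p after Psme4 were named after their values were seen, and none passed by edgeR with 8 libraries. Gm13456 (Gene 666531, chromosome 2, 40555685 to 40557432), a predicted pseudogene whose reads may be shared with near-identical copies, had 71.4 and 74.5 CPM in GS and 55.3 and 56.2 CPM in WT at 3 d, and 74.0 and 68.7 CPM in GS and 58.0 and 55.4 CPM in WT at 15 d. The groups lay apart at both stages, with a log2 fold change of 0.36 ± 0.05 and an adjusted p of 0.173, and with all 16 libraries in the fit it passed (0.36, adjusted p = 0.0343 by edgeR). P4ha1, a subunit of the enzyme that hydroxylates collagen, had 153 and 157 CPM in GS and 116 and 121 CPM in WT at 3 d, and 122 and 114 CPM in GS and 92.7 and 102 CPM in WT at 15 d. It too lay apart at both stages (0.33 ± 0.05, adjusted p = 0.520 by edgeR).

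Rn18s-rs5, a sequence related to 18S ribosomal RNA, had 856 and 716 CPM in GS and 1109 and 1124 CPM in WT at 3 d, and 999 and 1055 CPM in GS and 2408 and 3078 CPM in WT at 15 d. The groups lay apart at both stages and WT at 15 d was the highest (log2 fold change -0.96 ± 0.17, adjusted p = 0.619 by edgeR). With a coefficient per group in the fit Rn18s-rs5 passed (-0.96, adjusted p = 0.0134 by edgeR). The pseudogene Gm12164 had 0.86 ± 0.17 and Sik1, a salt-inducible kinase, had -0.41 ± 0.09, both without overlap at either stage. Over all genes, 3.58% lay apart at both stages with GS higher and 3.29% with GS lower.

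**Figure D2:**
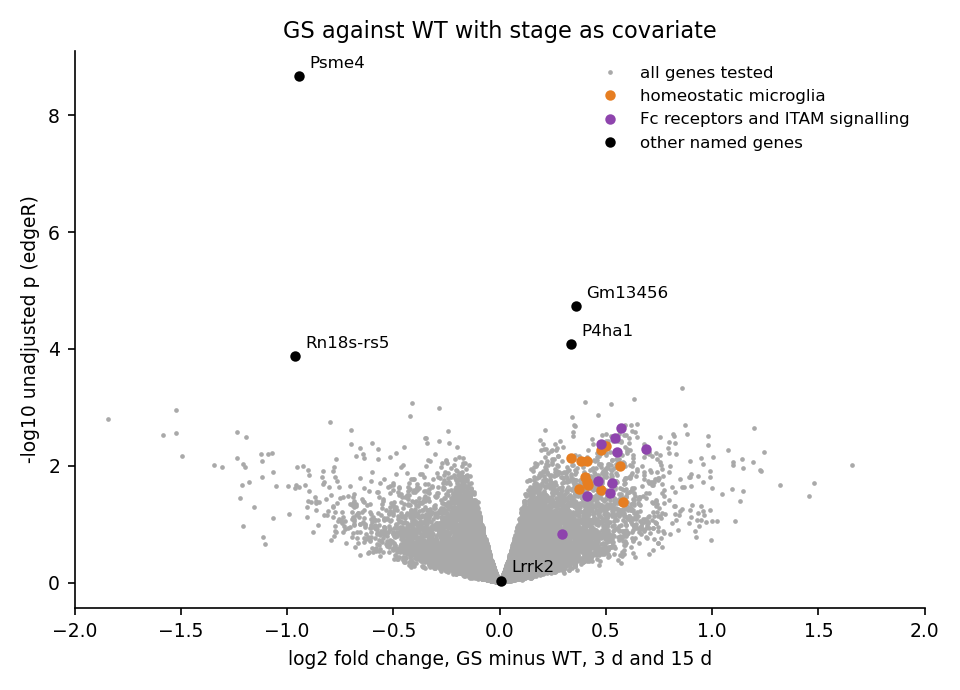
Log2 fold change of GS minus WT at 3 d and 15 d (x axis) against -log10 of the unadjusted p of edgeR's test (y axis) for each of 18646 genes in grey, with 2 microglial gene lists in colour and named genes in black. Psme4 stands alone at the top left, and the 12 homeostatic microglia genes and 10 Fc receptor and ITAM genes all lie right of 0 below the adjusted threshold.

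Lists of microglial genes and of genes of other myeloid cells lay mostly above 0, and none of their members passed by edgeR with stage as a covariate. Counted over all genes, that fit called 0 higher in GS, and 800 were higher at an unadjusted p under 0.05 (4.29%). DESeq2 called 10 higher and limma-voom 0. With replicate number as a further block, edgeR called 182 higher (0.976%), and 32 of its 186 calls were in the microglial, Fc receptor, complement, Toll-like and lysosome lists. The labels do not state that these numbers pair the samples. Over all genes, 48.3% lay above 0 and 3.58% lay apart at both stages with GS higher. Of the 10 called by DESeq2, Ly86, a partner of Toll-like signalling on myeloid cells, and Lyn, a Src-family kinase of immune receptors, are named here for that. Ly86 had 39.3 and 50.6 CPM in GS and 24.3 and 31.7 CPM in WT at 3 d, and 54.1 and 64.2 CPM in GS and 31.7 and 47.3 CPM in WT at 15 d, without overlap (0.63 ± 0.14, adjusted p = 0.747 by edgeR and 0.0071 by DESeq2).

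Homeostatic microglia genes, which mark resident microglia, were higher in GS in all 12 of 12 at an unadjusted p under 0.05, with a median of 0.41 log2 units and a range of 0.34 to 0.58. The early libraries, which the fit did not use, gave the same 12 genes a median of 0.05. P2ry12, the receptor by which microglia sense ADP and move to damage, had 117 and 138 CPM in GS and 61.7 and 103 CPM in WT at 3 d, and 88.8 and 99.4 CPM in GS and 70.4 and 79.0 CPM in WT at 15 d. The groups lay apart at both stages (0.48 ± 0.14, adjusted p = 0.747 by edgeR). Tmem119, a surface protein of resident microglia, had 69.0 and 72.1 CPM in GS and 42.2 and 69.8 CPM in WT at 3 d, and 48.7 and 54.5 CPM in GS and 32.4 and 45.0 CPM in WT at 15 d. Its 3 d groups overlapped (0.37 ± 0.14). Cx3cr1, the fractalkine receptor, with 0.50 ± 0.14, and Csf1r, the receptor for the growth factor microglia need to survive, with 0.42 ± 0.16, were chosen after their values were seen.

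Summed over the 12 genes, GS striatum held 1374 and 1669 CPM at 3 d against 885 and 1365 CPM in WT striatum, and 1541 and 2017 CPM at 15 d against 1033 and 1515 CPM in WT striatum. Within each stage the lower GS library stood just above the higher WT library, so the groups barely separated. At intact and 6 h the sums lay between 344 and 530 CPM in both genotypes. Replicate 2 was the higher of each pair in all 4 reactive groups. The number of the 12 genes under an unadjusted p of 0.05 was 6 without GS 15 d replicate 2 and 7 without GS 3 d replicate 2, WT 15 d replicate 1 or WT 3 d replicate 1, and 11 or 12 without any other library. The median lay between 0.33 and 0.54 with each library left out in turn.

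**Figure D3:**
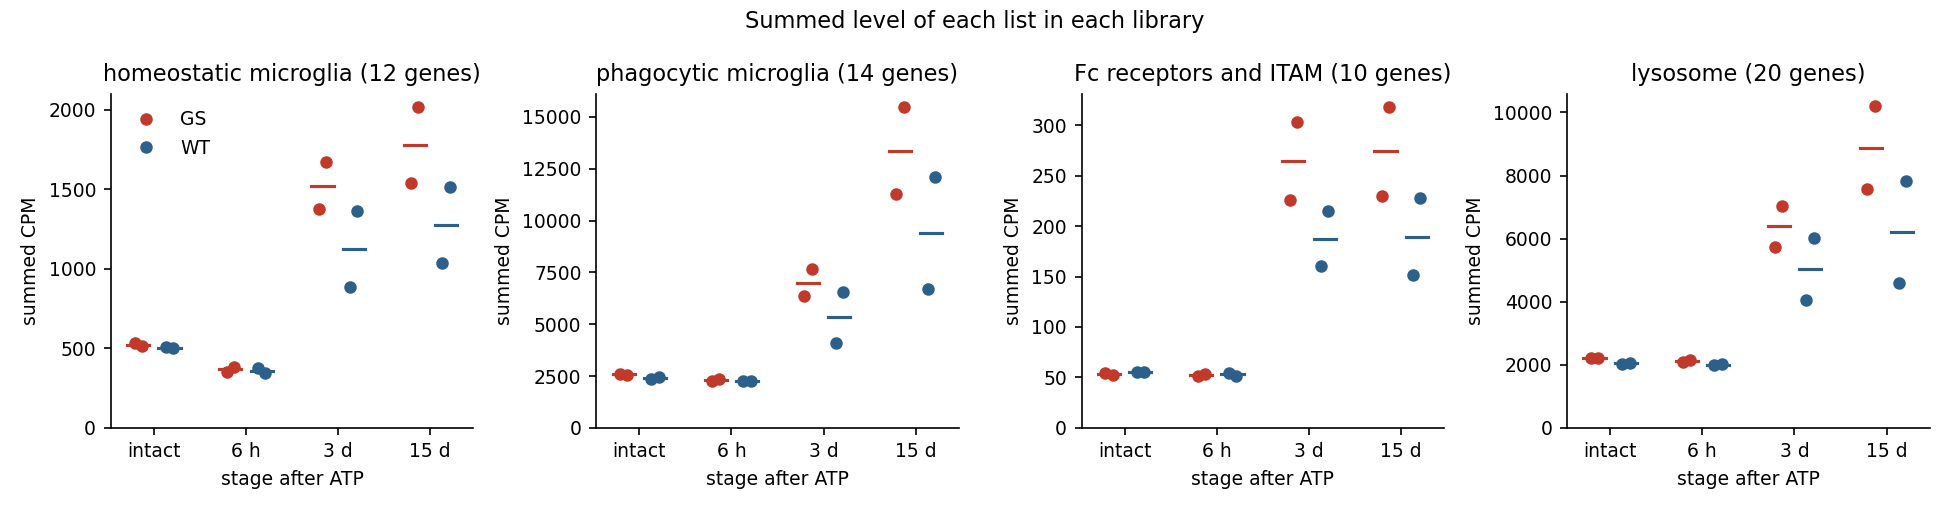
Summed CPM (y axis, from 0) of 4 gene lists in each of the 16 libraries by stage (x axis), with GS in red left of WT in blue; points are libraries and short lines are means of 2. At intact and 6 h the sums are lower and lie closer together, as at 344 to 530 CPM for homeostatic microglia. The lysosome and phagocytic sums of GS lie above those of WT at both early stages, and those of the other lists do not. For the lysosome list, intact GS holds 2223 and 2221 CPM and intact WT 2020 and 2070 CPM. At 3 d and 15 d the GS means lie above the WT means while the libraries of a group spread widely.

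Genes of phagocytic and disease-associated microglia lay above 0 in 14 of 14, with a median of 0.45. Of these, 5 were higher at an unadjusted p under 0.05, against 4.29% of all genes. Trem2, the lipid receptor that drives this state, had 45.3 and 46.5 CPM in GS and 21.3 and 45.5 CPM in WT at 3 d, and 130 and 178 CPM in GS and 70.9 and 138 CPM in WT at 15 d, with overlap at both stages (0.51 ± 0.24). Tyrobp, its adaptor DAP12, had 0.48 ± 0.22. Spp1, the secreted protein osteopontin, chosen after its values were seen, had 815 and 1411 CPM in GS and 311 and 746 CPM in WT at 3 d, and 363 and 555 CPM in GS and 122 and 366 CPM in WT at 15 d, and overlapped at 15 d (0.99 ± 0.35). No gene of this list lay apart at both stages. The count of 5 became 0 without GS 3 d replicate 2, 1 without GS 15 d replicate 2 or WT 3 d replicate 1, 2 without WT 15 d replicate 1, 8 without GS 15 d replicate 1, 11 without WT 15 d replicate 2 and 12 without WT 3 d replicate 2. The median was 0.29 without WT 15 d replicate 1.

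Fc receptors and the kinases that carry their ITAM signal, which trigger engulfment of antibody-coated targets, lay above 0 in 10 of 10, with a median of 0.52. Of the 10, 9 were higher at an unadjusted p under 0.05, against 4.29% of all genes. Fcgr2b, the inhibitory Fc receptor, had 12.5 and 19.4 CPM in GS and 8.84 and 12.2 CPM in WT at 3 d, and 15.0 and 22.4 CPM in GS and 8.20 and 13.5 CPM in WT at 15 d. The groups lay apart at both stages (0.69 ± 0.20, adjusted p = 0.747 by edgeR). Fcgr1, the high-affinity receptor, overlapped at both stages (0.30 ± 0.19). Syk, the kinase that binds phosphorylated ITAMs, had 15.0 and 17.3 CPM in GS and 11.4 and 13.4 CPM in WT at 3 d, and 13.3 and 19.1 CPM in GS and 8.29 and 11.4 CPM in WT at 15 d. Syk (0.54 ± 0.15) and Lyn (0.57 ± 0.14), named after their values were seen, were both apart at both stages. The count of 9 was 5 without GS 3 d replicate 2, GS 15 d replicate 2, WT 3 d replicate 1 or WT 15 d replicate 1.

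Toll-like receptor and NF-kappaB genes lay above 0 in 14 of 16, with a median of 0.25. The 7 higher at an unadjusted p under 0.05, against 4.29% of all genes, were all receptors. Tlr2, which binds bacterial lipoproteins and products of damaged cells, had 12.2 and 21.6 CPM in GS and 12.02 and 11.7 CPM in WT at 3 d, and 20.6 and 28.4 CPM in GS and 10.3 and 19.6 CPM in WT at 15 d, apart by little at each stage (0.61 ± 0.21). Its partner Tlr1 had 0.47 ± 0.20. The count of 7 was 0 without GS 3 d replicate 2, 1 without GS 15 d replicate 2, 3 without WT 15 d replicate 1 and 4 without WT 3 d replicate 1. The median was 0.15 without WT 15 d replicate 1.

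Complement genes lay above 0 in 11 of 14, with a median of 0.29. The median was 0.15 at 3 d and 0.50 at 15 d. C3, the central complement protein, was the lowest of the list at -1.11 ± 0.85. It had 4.37 and 5.7 CPM in GS and 70.5 and 4.53 CPM in WT at 3 d. At 15 d it had 38.0 and 66.5 CPM in GS and 25.2 and 51.1 CPM in WT, with overlap at both stages. Of the 14, 4 were higher at an unadjusted p under 0.05, against 4.29% of all genes. C1qa, a chain of the C1q recognition protein, had 190 and 208 CPM in GS and 150 and 221 CPM in WT at 3 d, and 381 and 480 CPM in GS and 213 and 363 CPM in WT at 15 d (0.34 ± 0.18). Its groups overlapped at 3 d and lay apart at 15 d, and C1qb had 0.28 ± 0.16. Itgam, the CR3 receptor chain CD11b, with 0.56 ± 0.15 and apart at both stages, and C3ar1, the C3a receptor, with 0.72 ± 0.26, were chosen after their values were seen. The count of 4 was 1 without GS 15 d replicate 2 or WT 15 d replicate 1, 2 without GS 3 d replicate 2, 7 without WT 3 d replicate 2 and 8 without WT 15 d replicate 2. The median was 0.13 without WT 15 d replicate 1 and 0.16 without GS 15 d replicate 2, and C1qa had 0.16 and 0.22 without the same libraries and 0.51 without WT 3 d replicate 2.

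Lysosome genes, where LRRK2 and phagocytosis meet, lay above 0 in 19 of 20, with a median of 0.37. Of the 20, 11 were higher at an unadjusted p under 0.05, against 4.29% of all genes. Lamp1, a membrane protein of the lysosome, had 387 and 438 CPM in GS and 315 and 410 CPM in WT at 3 d, and 505 and 575 CPM in GS and 390 and 528 CPM in WT at 15 d, with overlap at both stages (0.21 ± 0.11). Lamp2 had 0.20 ± 0.10. Grn, which encodes progranulin, and Ctsb, the protease cathepsin B, had 0.61 ± 0.22 and 0.42 ± 0.15 and were chosen after their values were seen. Summed over 20 genes, GS held 5740 and 7041 CPM at 3 d against 4064 and 6025 CPM in WT, and 7571 and 10190 CPM at 15 d against 4589 and 7822 CPM in WT, so the groups overlapped at both stages. The count of 11 was 2 without GS 15 d replicate 2, 3 without GS 3 d replicate 2, 4 without WT 3 d replicate 1 or WT 15 d replicate 1, and 17 without WT 15 d replicate 2, and the median was 0.23 without WT 15 d replicate 1.

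Cytokine and chemokine genes could be read only in part, since 13 of 22 were in the table and Il1b, Tnf, Il6 and Ccl2 were not analysed here. Of the 13, 10 lay above 0, with a median of 0.36 and 6 higher at an unadjusted p under 0.05, and that count was 3 without GS 3 d replicate 2 or GS 15 d replicate 2. The median was 0.23 without GS 3 d replicate 2 and 0.24 without WT 15 d replicate 1. Over all genes and all 8 libraries, 4.29% were higher at an unadjusted p under 0.05. Il1a, the alarm cytokine interleukin-1α, had 1.70 and 2.97 CPM in GS and 1.25 and 1.35 CPM in WT at 3 d, and 1.02 and 1.78 CPM in GS and 1.52 and 1.00 CPM in WT at 15 d. It lay apart at 3 d and overlapped at 15 d (0.50 ± 0.27).

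Markers of monocytes and macrophages, which enter from the blood, lay on the same side as these lists. Of 8 monocyte and macrophage genes tested, 8 lay above 0 with a median of 0.26, and their sum was 271 and 409 CPM in GS against 165 and 245 CPM in WT at 3 d, and 418 and 639 CPM in GS against 228 and 425 CPM in WT at 15 d. The sums lay apart at 3 d and overlapped at 15 d. The median was 0.12 without GS 3 d replicate 2 and 0.40 without WT 15 d replicate 2. Lyz2, a lysozyme of monocytes, macrophages and activated microglia, had 80.2 and 140 CPM in GS and 32.5 and 74.6 CPM in WT at 3 d, and 286 and 470 CPM in GS and 127 and 281 CPM in WT at 15 d, apart at both stages (0.96 ± 0.30, adjusted p = 0.747 by edgeR). Ly6c2, a marker of inflammatory monocytes, stayed at 0.72 to 2.31 CPM in GS and 0.75 to 1.70 CPM in WT (0.30 ± 0.20). The monocyte receptor Ccr2 and the listed genes Ms4a4c, Plac8 and Chil3 were not analysed here. The part of monocytes in the microglial lists was not tested.

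Collagen and fibroblast genes, which mark the forming scar, lay above 0 in 19 of 20, against 48.3% of all genes, with a median of 0.31. Of the 20, 9 were higher at an unadjusted p under 0.05, against 4.29% of all genes. GS lay higher and apart at both stages for 6, against 3.58% of all genes. Col1a1, a chain of type I collagen, had 5.25 and 8.77 CPM in GS and 4.64 and 4.71 CPM in WT at 3 d, and 7.32 and 10.2 CPM in GS and 5.56 and 6.49 CPM in WT at 15 d (0.56 ± 0.17). Col1a2, the other chain, had 10.2 and 17.9 CPM in GS and 7.49 and 9.61 CPM in WT at 3 d, and 13.5 and 19.0 CPM in GS and 8.47 and 12.3 CPM in WT at 15 d (0.68 ± 0.19). Both lay apart at both stages and had an adjusted p of 0.747 by edgeR. The count of 9 was 4 without GS 15 d replicate 2. In the early libraries the 20 genes had a median of 0.04.

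Pan-reactive astrocyte genes are those that astrocytes raise after many kinds of injury. Of 10 tested 0 passed by edgeR, none was under an unadjusted p of 0.05, and 8 lay above 0 with a median of 0.26. DESeq2 and limma-voom each put 1 under that level, and with a library left out edgeR put up to 4 there, without WT 3 d replicate 1. The median was 0.06 without WT 15 d replicate 1 and 0.12 without GS 15 d replicate 2. Gfap, the filament protein of reactive astrocytes, had 1102 and 1303 CPM in GS and 899 and 1122 CPM in WT at 3 d, and 1030 and 1229 CPM in GS and 656 and 1199 CPM in WT at 15 d. The groups overlapped at both stages (0.26 ± 0.16), and the value was 0.11 without WT 15 d replicate 1 and 0.46 without WT 15 d replicate 2. Vim, the filament protein vimentin, also overlapped at 3 d and 15 d (0.47 ± 0.22, unadjusted p = 0.0565 and adjusted p = 0.778 by edgeR).

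**Figure D4:**
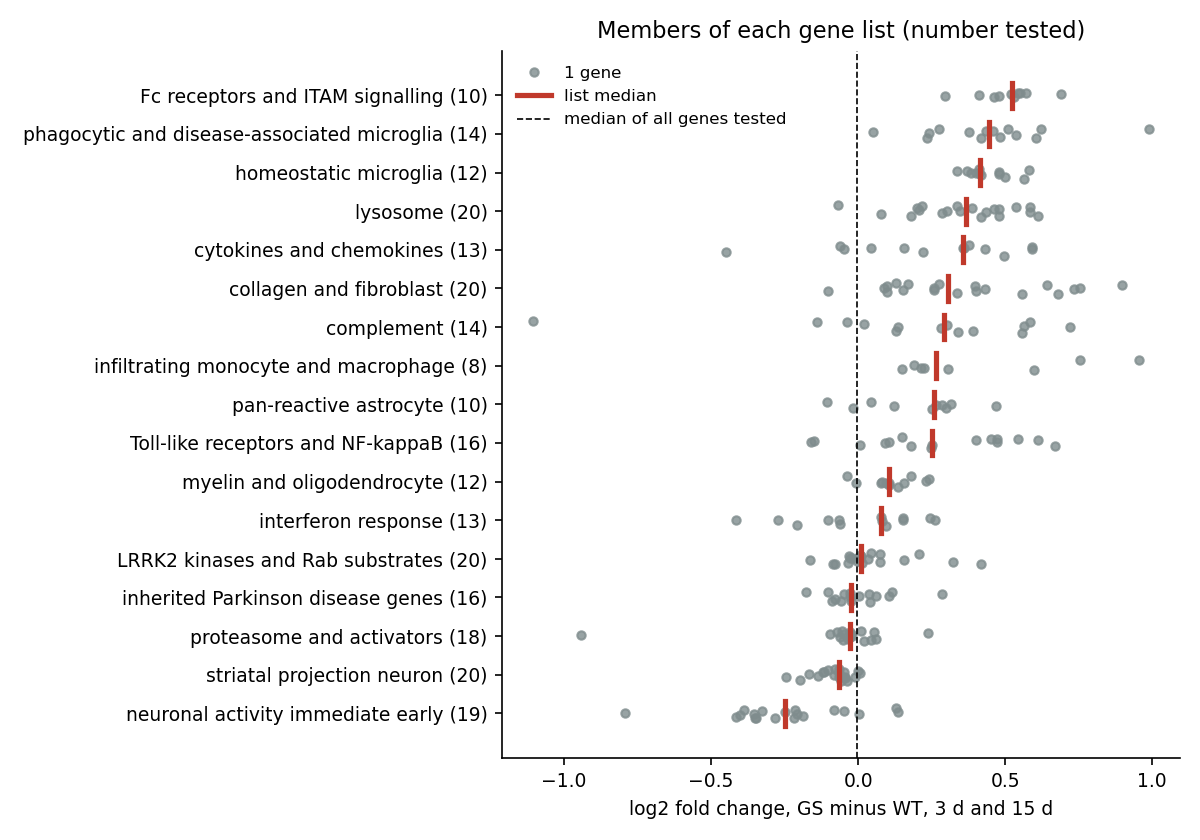
Log2 fold change of GS minus WT at 3 d and 15 d (x axis) of each tested member of 17 gene lists (rows, with the number tested), as grey points with the list median in red; the dashed line is the median of all genes tested. The microglial, lysosomal and collagen medians lie at 0.31 to 0.52, and those of the projection neuron and immediate early lists lie below 0.

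Genes of striatal neurons lay close to 0. Of 20 projection neuron genes tested, 0 passed by edgeR, 1 lay above 0, against 48.3% of all genes, and the median was -0.07 log2 units. Drd1, the dopamine receptor of the direct pathway, had 264 and 245 CPM in GS and 297 and 242 CPM in WT at 3 d, and 196 and 203 CPM in GS and 226 and 185 CPM in WT at 15 d. The groups overlapped at both stages (-0.07 ± 0.08, 95% interval -0.24 to 0.11), and Drd2, the receptor of the indirect pathway, had -0.06 ± 0.06. Tac1, the substance P precursor, at -0.25 ± 0.11, and Isl1, a factor of direct-pathway neurons, at -0.20 ± 0.08, were the 2 genes under an unadjusted p of 0.05 and were named after that was seen. Without GS 3 d replicate 2, GS 15 d replicate 2, WT 3 d replicate 1 or WT 15 d replicate 1, 0 genes of this list were under that level. The median was -0.11 without WT 15 d replicate 2 or WT 3 d replicate 2, -0.04 without GS 3 d replicate 2 and -0.01 without WT 3 d replicate 1.

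Immediate early genes, which neurons switch on soon after activity, had mostly negative values at 3 d and values near 0 at 15 d. Their 19 members had a median of -0.25 over both stages, with 5 lower at an unadjusted p under 0.05, against 2.23% of all genes. At 3 d 1 of 19 lay above 0, against 13 of 19 at 15 d. The share of all genes above 0 at a single stage was not counted. The median change of the genotype difference from 3 d to 15 d was 0.52, against 0.0062 for all genes. Fos, a transcription factor, had 25.6 and 20.2 CPM in GS and 39.3 and 33.3 CPM in WT at 3 d, and 35.2 and 33.8 CPM in GS and 37.1 and 33.9 CPM in WT at 15 d. It lay apart at 3 d and overlapped at 15 d, and the difference at 15 d less that at 3 d was 0.62 ± 0.18 (adjusted p = 1 by edgeR). Fosb had 28.4 and 21.4 CPM in GS and 56.3 and 35.1 CPM in WT at 3 d, and its change between stages was 0.93 ± 0.28. The list median was -0.05 without GS 3 d replicate 2, the library with the lowest sum, and its count of 5 was 3 without that library and 1 without WT 3 d replicate 1.

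The difference between genotypes was then compared between 15 d and 3 d for every gene. By edgeR 0 of 18646 genes passed, 539 were under an unadjusted p of 0.05 (2.89%), DESeq2 called 12 and limma-voom 0. Without WT 3 d replicate 2 edgeR called 4, which were C3, Lcn2, Slc4a11 and Rsad2, and the WT 3 d library then left held C3, the central complement protein, at 70.5 CPM, against 4.53 CPM in the one left out. Interferon response genes, which cells switch on against viruses, had opposite signs at the 2 stages. All 13 tested had a log2 fold change above 0 at 3 d, with a median of 0.39, and 3 of 13 did at 15 d, with a median of -0.45. For all genes the share above 0 at a single stage was not counted. The median of the change was -0.93, against 0.0062 for all genes. At an unadjusted p under 0.05, 5 of 13 were lower at 15 d than at 3 d, against 1.54% of all genes.

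Rsad2, the antiviral enzyme viperin, named after its values were seen, had 4.31 and 5.79 CPM in GS and 1.22 and 2.29 CPM in WT at 3 d, and 1.25 and 1.24 CPM in GS and 2.96 and 3.82 CPM in WT at 15 d. The groups lay apart at both stages in opposite directions, and the change was -2.95 ± 0.43 (adjusted p = 0.424 by edgeR and 1.58e-06 by DESeq2). Ifit1, which blocks translation of viral RNA, and Iigp1, an interferon-induced GTPase outside the list, were also named after their values were seen. Ifit1 had 6.02 and 9.28 CPM in GS and 2.81 and 4.70 CPM in WT at 3 d, and 2.50 and 2.27 CPM in GS and 4.19 and 6.92 CPM in WT at 15 d (change -2.23 ± 0.45). Iigp1 had 3.38 and 4.14 CPM in GS and 1.63 and 3.03 CPM in WT at 3 d, and 1.66 and 1.35 CPM in GS and 4.25 and 3.95 CPM in WT at 15 d (change -2.13 ± 0.41).

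The first genes of the interferon list were less clear. Irf7, the factor that amplifies the interferon response, had 8.04 and 12.01 CPM in GS and 2.85 and 8.78 CPM in WT at 3 d, and 1.90 and 4.49 CPM in GS and 2.44 and 5.74 CPM in WT at 15 d. It overlapped at both stages, with a change of -1.13 ± 0.78, and Ifi27l2a had -0.88 ± 0.93. Summed over 13 genes, GS held 155 and 209 CPM at 3 d against 117 and 168 CPM in WT, and 96.2 and 128 CPM at 15 d against 123 and 164 CPM in WT, so the sums overlapped at both stages.

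**Figure D5:**
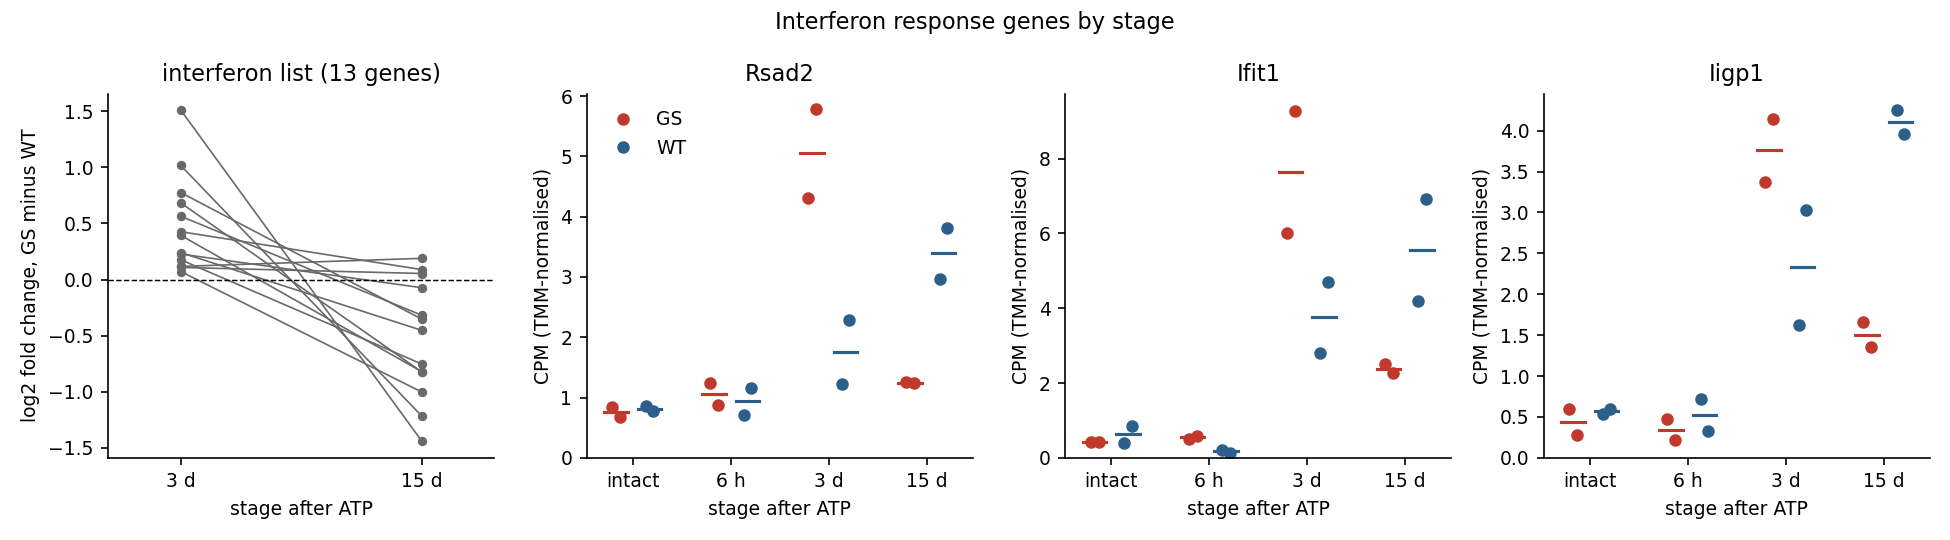
Left, log2 fold change of GS minus WT (y axis) at 3 d and 15 d (x axis) for 13 interferon response genes, each a line. Right, CPM (y axis, from 0) of Rsad2, Ifit1 and Iigp1, chosen after their values were seen, in each library by stage (x axis). GS is in red left of WT in blue, with means of 2 as short lines. For these genes GS lies above WT at 3 d and below it at 15 d.

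Lars2 and Rn18s-rs5 stood highest in WT striatum at 15 d. Lars2, the mitochondrial leucyl-tRNA synthetase, named for its p, had 92.4 and 108 CPM in GS and 100 and 102 CPM in WT at 3 d, and 101 and 110 CPM in GS and 194 and 194 CPM in WT at 15 d. Its change was -0.86 ± 0.12 (adjusted p = 0.424 by edgeR and 6.36e-05 by DESeq2), and Rn18s-rs5, described above with its highest levels in the same 2 WT libraries, had -0.91 ± 0.19. The part of ribosomal RNA in the change of Lars2 was not tested. Myelin genes had a median of 0.27 at 3 d, with 12 of 12 above 0, and -0.09 at 15 d, with 1 of 12 above 0. The share of all genes above 0 at a single stage was not counted. The median change of the myelin genes was -0.35, against 0.0062 for all genes. At an unadjusted p under 0.05 by edgeR, 5 of 12 were lower at 15 d than at 3 d, against 1.54% of all genes. Summed over the 12 genes, the GS and WT libraries overlapped at 15 d, at 10100 and 8771 CPM in GS and 9231 and 10440 CPM in WT. Mbp, a structural protein of the myelin sheath, had a change of -0.33 ± 0.18 (adjusted p = 1.00 by edgeR).

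The reactive difference was last set against the early one, from the intact and 6 h libraries. In the early stages 10.4% of 18626 genes were under an unadjusted p of 0.05. By edgeR 0 of 18813 genes passed this test of the difference itself, 1436 were under an unadjusted p of 0.05 (7.63%), and DESeq2 and limma-voom each called 0. P2ry12 was higher in GS by 0.48 ± 0.14 at the reactive stages and had -0.21 ± 0.09 at the early ones, so that the difference was 0.69 ± 0.18 (adjusted p = 0.623 by edgeR). Of the 12 homeostatic microglia genes 6, and of the 10 Fc receptor and ITAM genes 6, had a larger reactive difference at an unadjusted p under 0.05, against 3.99% of all genes. That held for 3 of 14 phagocytic, 1 of 14 complement, 1 of 20 lysosome and 0 of 16 Toll-like receptor and NF-kappaB genes. In the Toll-like list 1 gene had a smaller reactive difference at that level. Without WT 3 d replicate 2 this test called 3 genes, P2ry12 among them (0.90, adjusted p = 0.0157 by edgeR), with Ptgds and Slc24a4. Il1a had 0.50 ± 0.27 at the reactive stages and -0.83 ± 0.21 at the early ones, a difference of 1.26 ± 0.35 with the same adjusted p of 0.623.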

How the data were processed

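The deposited table holds raw read counts of 19457 genes in 16 libraries, per the file headers, and the authors checked reads with FastQC 0.11.7 and used mm10, per the submitters' processing notes. Per the labels' protocols, RNeasy kits gave the RNA and a TruSeq kit the libraries. The aligner, the counter and the strand setting were not given in the sources used here. No gene listed has fewer than 1 count in any of the 16 libraries, and 64 of 654 list genes are outside the table and were not analysed here.

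Counts of 8 libraries were fitted in R 4.3.3 with edgeR 4.0.16 (filterByExpr by group, TMM, glmQLFTest, stage and genotype, 5 residual degrees of freedom, biological coefficient of variation 11.4%), which tested 18646 genes and removed 811. P-values were adjusted over all genes tested by Benjamini-Hochberg, at 0.05. Further fits covered genotype by stage, the early stages, and reactive less early over 16 libraries. Standard errors are the absolute log2 fold change over the square root of F. DESeq2 1.42.0, limma-voom (limma 3.58.1), filters, scalings and each library left out were alternatives.

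Positions are GRCm38.p6, matched by Gene ID for 19410 genes. Named were Lrrk2, genes that passed at a mean of at least 1 CPM without overlap, and passing members or the first 2 measured of each list; the rest are marked as named after their values were seen, in the text or as levels beside a result. Some genes that this rule names are not reported here. Members and lists were chosen with earlier results of these data known.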

Additional observations from a re-analysis of the deposited data

How the results depend on the processing

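Psme4 passed in each of the alternatives run. The number of genes passing in GS against WT was 13 by DESeq2, 2 with all 16 libraries (Psme4 and Gm13456), 2 with a coefficient per group (Psme4 and Rn18s-rs5) and 1 with RLE size factors, limma-voom, other filters, a fold threshold of 1.2, the cortical covariate, no genes near Lrrk2, or any library left out. Other counts were 12 by DESeq2 for genotype by stage and 121 by DESeq2 for the early stages. Shared replicate numbers are not stated to pair the samples. Deviations of same-numbered libraries correlated at 0.0817 at 3 d and 0.156 at 15 d over tested genes (0.155 and 0.381 over genes of at least 1 CPM). In the early libraries they correlated at 0.0161 in intact striatum and -0.0015 at 6 h. With the replicate block, 186 genes passed (182 higher and 4 lower, 0.998%), 32 of them in the microglial, Fc receptor, complement, Toll-like and lysosome lists; 10 passed for reactive less early, 1 for the early stages and 0 for genotype by stage. With a library left out, where a lone library is taken to vary like the other groups, counts ran from 0 to 4 for genotype by stage, 1 to 2 for the early stages (2 without WT 6 h replicate 2) and 0 to 3 for reactive less early. Log2 fold changes near 0 took the other sign in some fits: Ifit1 had 0.10 by limma-voom, Erlec1 0.00089 with all 16 libraries and 0.047 with the cortical covariate, and Psme2 -0.028 with that covariate. With a library left out the lowest and highest values were -0.051 and 0.11 for Lrrk2, -0.22 and 0.51 for Ifi27l2a, -0.12 and 0.63 for Irf7, -0.011 and 0.14 for Psme1, -0.032 and 0.064 for Psme2, -0.045 and 0.039 for Erlec1, -0.0398 and 0.074 for Gpr75, -0.43 and 0.52 for Rsad2 and -0.46 and 0.28 for Ifit1. Medians ran from -0.036 to 0.0079 for inherited Parkinson disease genes, -0.0504 to 0.0029 for proteasome genes and -0.26 to 0.24 for interferon response genes. The cause was not tested. With 2 libraries a group, the spread between libraries limits these results more than depth does.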
